A study of Mus musculus with 2 samples.

Results

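The 6 genes described here encode the secreted matrix protein osteopontin (Spp1) and receptor chains that bind it: the hyaluronan receptor CD44 (Cd44), the integrin chains alpha v (Itgav), beta 3 (Itgb3) and beta 5 (Itgb5), and the integrin chain alpha 9 (Itga9). They were chosen by symbol, with earlier results of these data known, from 48709 genes measured in single cells. All 6 were detected in both libraries. Cells selected for the surface protein CD11b were compared between implanted mouse cochleae, which held a cochlear implant electrode and were taken 33 days after surgery, and non-implanted mouse cochleae. Both groups came from C57BL/6J mice of the genotype CX3CR1+/GFP Thy1+/YFP, with males and females pooled. The labels do not give the age or the number of animals, and do not say whether the non-implanted cochleae were the opposite ears of the implanted mice. There was 1 library per group, so there was no replicate check and no test was made. Intervals are 95% intervals that cover counting error only, so they understate the uncertainty of a gene whose UMIs sit in a handful of cells.

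Osteopontin is an acidic phosphoprotein of bone matrix that is also secreted by macrophages, and it is a frequent marker of macrophages in injured or fibrotic tissue. Integrins are pairs of an alpha and a beta chain. Alpha v pairs with beta 3 or beta 5 to bind an arginine-glycine-aspartate motif in osteopontin, whereas alpha 9 pairs with beta 1 and binds a neighbouring stretch that thrombin exposes. CD44 is best known as the receptor for hyaluronan and is carried by most leukocytes. Osteoclasts rely on alpha v beta 3 to attach to bone, and platelets carry beta 3 chiefly in a complex with the alpha IIb chain.

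The integrin-binding codons are shown for Spp1 and for the 2 other ligand genes whose transcripts differed most between the libraries in macrophage-like cells, fibronectin (Fn1) and milk fat globule factor 8 (Mfge8). Each line is coding sequence of GRCm38 read with the GENCODE M21 annotation, and the capitals mark the arginine-glycine-aspartate codons.
Spp1: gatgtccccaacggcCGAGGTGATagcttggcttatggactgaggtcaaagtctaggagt
Fn1: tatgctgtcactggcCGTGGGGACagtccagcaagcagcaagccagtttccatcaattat
Mfge8: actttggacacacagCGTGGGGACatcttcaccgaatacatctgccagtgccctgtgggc
The Spp1 stretch lies at chr5:104439466-104439525 on the plus strand, in exon 7 of 8, and its capitals are codons 145 to 147 of 295. The first 7 lower-case codons after the capitals are the stretch that alpha 9 beta 1 binds. The Fn1 stretch lies at chr1:71606710-71606769 on the minus strand, with the capitals at codons 1614 to 1616, and the Mfge8 stretch at chr7:79145272-79145331 on the minus strand, at codons 87 to 89. Of 15 other ligand genes searched for these codons in frame, 6 held them. The 3 transcripts shown therefore encode the same motif in different surroundings, and the Fn1 transcript holds it again at codon 2181, not printed here. Of the annotated coding transcripts, 6 of 7 for Spp1, 7 of 12 for Fn1 and 2 of 3 for Mfge8 hold the codons. The counts below are per gene and do not separate these transcripts. They also do not show whether the proteins were made or bound.

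On GRCm38 (GENCODE M21), Spp1 (ENSMUSG00000029304.14) spans 104435118 to 104441050 on the plus strand of chromosome 5. Cd44 lies on the minus strand of chromosome 2 (102811141 to 102901665), and Itgav on its plus strand (83724397 to 83806916). Itgb3 lies on chromosome 11 (104608000 to 104670476), Itgb5 on chromosome 16 (33829665 to 33949338) and Itga9 on chromosome 9 (118606690 to 118901003), all on the plus strand. The gene Gm42793 lies on the same strand as Spp1, shares 309 exon bases with it and had 0 UMIs in both libraries. The antisense transcript Gm13684 shares 634 exon bases with Itgav and had 36 UMIs in implanted and 44 UMIs in non-implanted cells. How strand was used in counting is not given in the sources used here, so reads of that pair may not be fully separated.

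After filtering, 3065 implanted cells with 18424595 UMIs (unique molecular identifiers, each standing for 1 captured transcript) and 3411 non-implanted cells with 20374205 UMIs remained, at median depths of 4237 and 4150 UMIs per cell. The libraries shared 5 cell barcodes. Ptprc, the leukocyte antigen CD45, had a UMI in 90.0% and 93.1% of cells, and Itgam, the gene of CD11b, had 133 and 161 UMIs. Levels are in CPM, the gene's UMIs summed over the cells of a class and scaled to a total of 1000000 UMIs. Because 3' capture differs from gene to gene, a level is compared across cells and libraries and not between genes. Classes were named from marker transcripts and end in "-like". Neutrophil-like cells were the most numerous class (1899 implanted and 2353 non-implanted cells). There were 394 and 411 granulocyte precursor-like, 289 and 243 macrophage-like, 272 and 227 monocyte-like, 77 and 41 erythroid-like, 40 and 32 B cell-like and 11 and 28 osteoclast-like cells.

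Spp1 had the widest difference between the libraries of the 6 members over all cells. Over all cells it had 623 CPM in the implanted library (95% interval 612 to 635) and 48.1 CPM in the non-implanted library (45.1 to 51.2), a log2 ratio of 3.57 on the scale of CPM plus 5, with a plain ratio between 12.1 and 13.9. A UMI of Spp1 was seen in 16.2% of implanted and 9.32% of non-implanted cells. Among the 6 members, 1 was at least 2-fold higher and 0 were at least 2-fold lower in implanted cells on the log2 scale of CPM plus 5, against 0.545% and 0.0332% of the 15058 genes with at least 20 UMIs, or 0.578% in either direction. The members were picked with such values known, so nothing is read from that count.

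The Spp1 signal lay mainly in macrophage-like cells of the implanted library. They had 5396 CPM (5291 to 5503), against 84.7 CPM in non-implanted macrophage-like cells, a ratio of 63.7 (53.4 to 76.8). Of all Spp1 UMIs, macrophage-like cells held 87.0% in implanted and 12.6% in non-implanted cochleae. A UMI was seen in 34.6% of implanted and 15.2% of non-implanted macrophage-like cells at median depths of 4686 and 5193 UMIs. After each cell was thinned to 1000 UMIs, leaving out 55 and 35 shallower cells, the shares were 25.6% and 5.77%. Neutrophil-like cells were the background planned for these shares, and after thinning 5.25% of 1867 implanted and 2.19% of 2330 non-implanted cells had a Spp1 UMI. B cell-like cells, a lymphoid class also taken as background, had a Spp1 UMI in 2 of 40 implanted and 2 of 32 non-implanted cells, whose median depths were 3406.5 and 4609 UMIs. After thinning, 0 of 39 and 0 of 32 B cell-like cells had a Spp1 UMI, which allows shares of up to 9.03% and 10.9%. The second bound lies above 5.77%, so these few cells cannot place the non-implanted macrophage-like share above background.

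**Figure D1:**
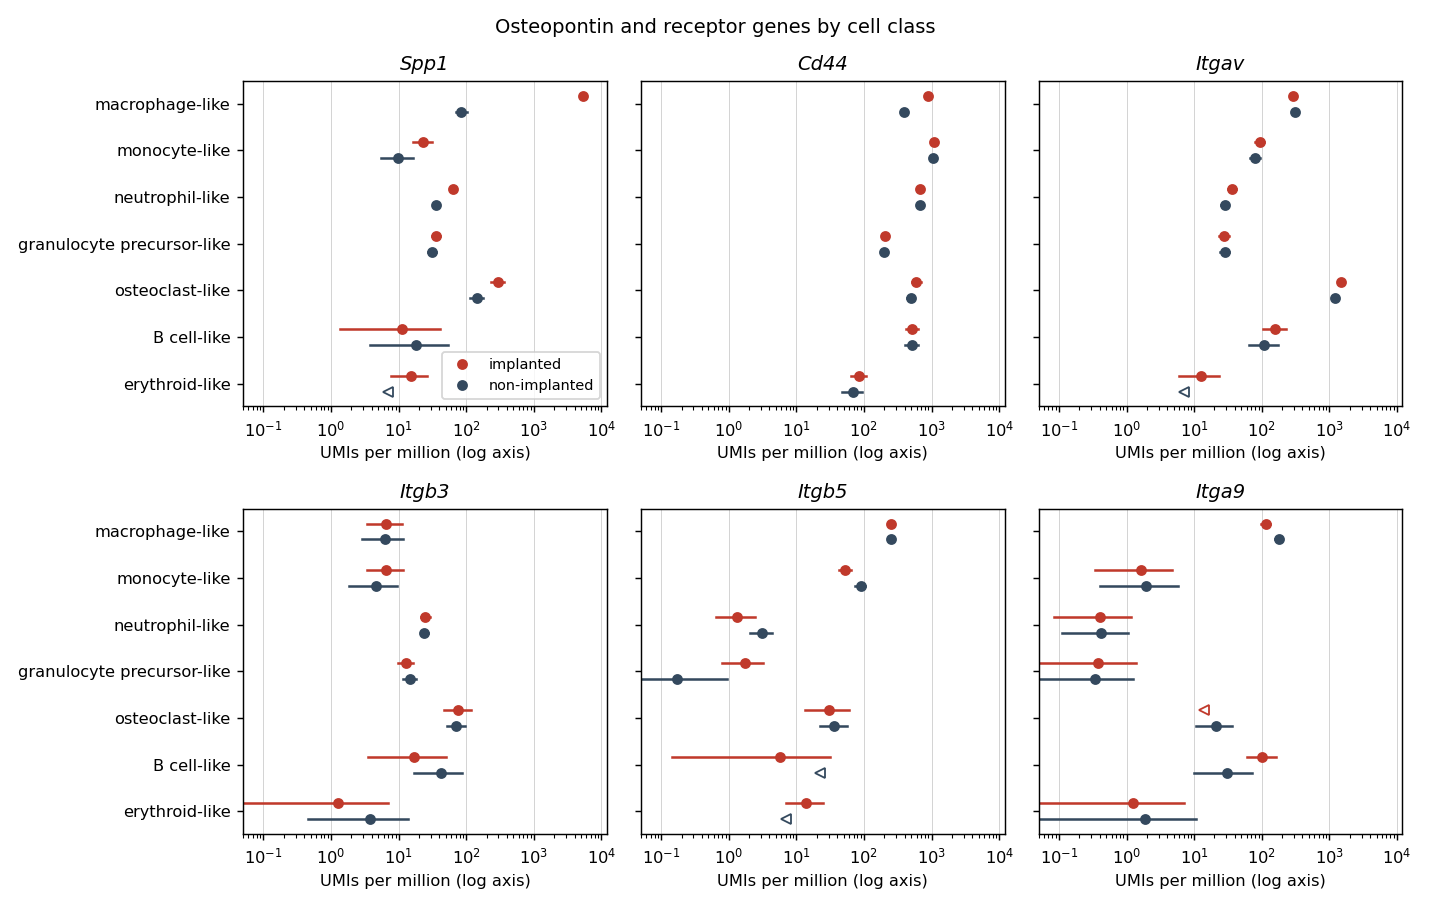
Level of each member in 7 cell classes, in CPM on a log axis, with implanted (red) above non-implanted (dark blue) in each class. Points are summed counts, bars are exact Poisson 95% intervals (cut at the left edge) and open triangles mark the upper bound where 0 UMIs were seen; Spp1 is at 5396 against 84.7 in macrophage-like cells, while Itgav and Itgb5 points there nearly coincide.

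Macrophage-like cells fell into 3 clusters, made without the members and the lists below, and these differed widely in Spp1. Cluster 19, led by Mmp12, Mfge8 and Gpnmb, held 61 implanted and 3 non-implanted cells. It took its name from the mean score of the macrophage markers, none of which was among its 10 leading genes. Cluster 8, led by class II and Mrc1 transcripts, held 126 and 163 cells, and the shallow cluster 11 (C1qa, Apoe) held 102 and 77. Implanted cells of cluster 19 had 14491 CPM of Spp1, with a lowest count of 0, a median of 26 and a highest of 1449 UMIs per cell, and 11 of the 61 cells had none. The 3 non-implanted cells of that cluster had 0, 0 and 13 UMIs. A cluster that is nearly all from 1 library cannot be told apart from that library's own effects.

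Outside that cluster the level was also higher in implanted cells, but few cells held the counts. In cluster 8, Spp1 had 205 CPM in implanted and 53.9 CPM in non-implanted cells (ratio 3.79, 2.88 to 5.06). Of its 205 implanted UMIs, 159 lay in 3 cells with at least 10 UMIs, and no non-implanted cell reached 10. Without those 3 cells the levels were 50.1 and 53.9 CPM (ratio 0.929, 0.625 to 1.37), so the difference in cluster 8 rested on them. Thinned shares there were 6.35% of implanted and 4.32% of non-implanted cells, with overlapping intervals. In cluster 11 the levels were 414 and 257 CPM (ratio 1.61, 1.08 to 2.42). Without its 2 implanted and 2 non-implanted cells with at least 10 UMIs they were 187 and 64.9 CPM (ratio 2.89, 1.39 to 6.57). That cut was made on the Spp1 count itself. From implanted cells it removed 41 of 74 UMIs (55.4%), and from non-implanted cells 31 of 41 (75.6%). Because it took unequal parts from the libraries, it cannot show whether the difference in cluster 11 rested on few cells. Thinned shares in cluster 11 were 11.5% and 9.30%, with overlapping intervals. Without cluster 19, macrophage-like cells had 236 CPM in implanted and 76.5 CPM in non-implanted cochleae (ratio 3.09, 2.47 to 3.89). When the 5 implanted and 2 non-implanted cells with at least 10 UMIs were left out as well, the levels were 72.2 and 55.1 CPM (ratio 1.31, 0.947 to 1.81). When each library was clustered alone, 30 of the 61 implanted cells of cluster 19 joined a monocyte-like and 22 a macrophage-like group, so the name of these cells rests on the joint clustering.

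**Figure D2:**
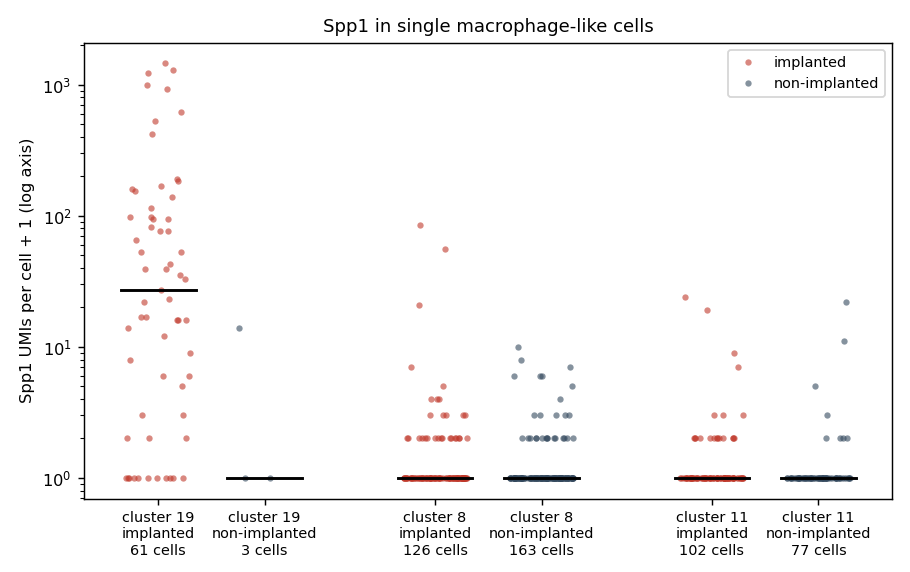
Spp1 UMIs per cell plus 1, on a log axis, in the 3 macrophage-like clusters, with implanted cells left of non-implanted cells and black lines at the medians. The median is 26 UMIs in the 61 implanted cells of cluster 19 and 0 in the other 5 sets of cells.

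Markers of other cell types in macrophage-like cells are given beside these values. The 10 neutrophil markers summed to 40010 CPM in implanted and 56888 CPM in non-implanted macrophage-like cells, with 3 higher and 7 lower in the implanted library. The 10 monocyte markers summed to 3630 and 3671 CPM, with 2 higher and 8 lower. All 8 erythroid markers were higher in implanted cells (1814 against 172 CPM), mostly through cluster 11 (17408 against 132 CPM). Osteoclast markers summed to 883 and 362 CPM, with 6 of 9 higher and Oscar at 0. By cluster their sum in implanted cells was highest in cluster 19, at 1638 CPM (628 CPM in its 3 non-implanted cells). It was 364 and 281 CPM in cluster 8 and 956 and 985 CPM in cluster 11. The part of the erythroid and osteoclast markers in the Spp1 values was not tested.

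Spp1 counts were concentrated in very few cells. The 10 cells with the most UMIs held 71.0% of Spp1 UMIs in implanted and 35.4% in non-implanted cochleae. In the implanted library 5 cells held more than all others together, and in the non-implanted library this took 28 cells. Cells with at least 10 Spp1 UMIs numbered 57 and 13, and were macrophage-like in 45 and 3 cases. The single highest cell, with 1449 of 27071 UMIs, held 12.6% of the implanted total. Cd44 showed no such concentration, with 4.59% and 2.98% of its UMIs in the 10 highest cells.

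**Figure D3:**
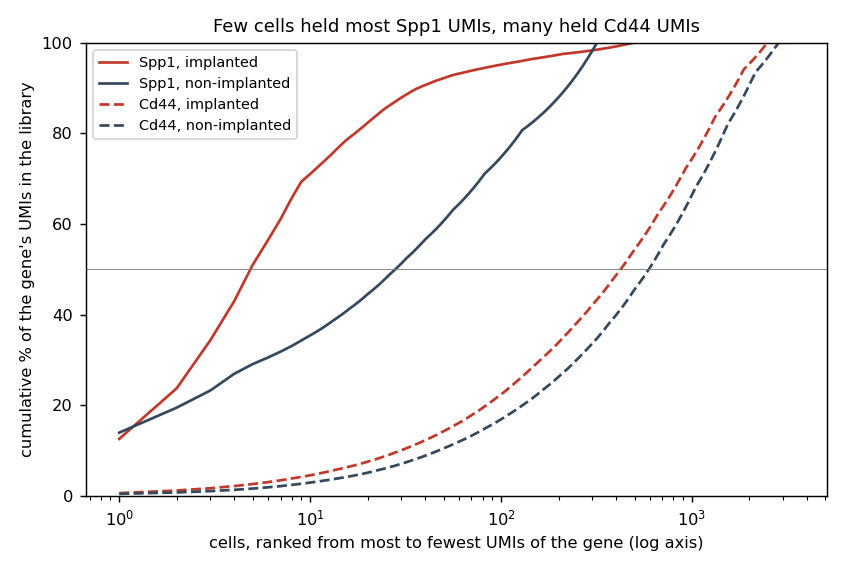
Cumulative percent of a library's UMIs of Spp1 (solid) and Cd44 (dashed) against cells ranked from most to fewest UMIs, on a log axis, for implanted (red) and non-implanted (dark blue) cells. For Spp1 the 10 highest cells hold 71.0% and 35.4%, against 4.59% and 2.98% for Cd44.

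Of the cells with at least 10 Spp1 UMIs, 4 implanted and 3 non-implanted cells were neutrophil-like, and 2 non-implanted cells were granulocyte precursor-like. The others outside the macrophage-like class were fibroblast or fibrocyte-like, megakaryocyte or platelet-like or osteoclast-like. The fibroblast or fibrocyte-like class was close to bone stroma: its osteoblast or bone stroma markers summed to 6721 CPM in implanted and 5456 CPM in non-implanted cells, and its fibroblast or fibrocyte markers to 5092 and 3560 CPM. These cells had 854 CPM in 13 implanted and 2410 CPM in 7 non-implanted cells, and 1 of the non-implanted cells held 88.4% of their counts. Megakaryocyte or platelet-like cells had 3225 CPM in 5 implanted and 695 CPM in 10 non-implanted cells, with 99.4% and 98.2% of the UMIs in 1 cell of each. That implanted cell held 539 Spp1 UMIs among 145257, together with 7509 UMIs of the platelet gene Pf4, 216 of Itgb3 and 0 of the macrophage gene C1qa. Osteoclast-like cells had 291 CPM in 11 implanted and 143 CPM in 28 non-implanted cells (ratio 2.04, 1.48 to 2.82). Theirs was the highest Spp1 level of the classes with at least 20 cells in the non-implanted library. However, 1 cell held 30.3% of their implanted and 1 cell 43.9% of their non-implanted UMIs, so the ratio and the order lean on few cells.

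Neutrophil-like cells had less Spp1, at 64.2 CPM in implanted and 35.7 CPM in non-implanted cells (ratio 1.80, 1.56 to 2.07). Thinned to 1000 UMIs, 5.25% and 2.19% of them had a Spp1 UMI. Within the class the level was not even. Cluster 6, led by the keratin genes Krt81 and Krt83, had 129 and 77.6 CPM, while its neighbours in the maturation order had less. Cluster 2 had 19.7 and 13.7 CPM, and cluster 7 had 32.4 and 29.4 CPM. After thinning, 11.5% of implanted and 6.32% of non-implanted cells of cluster 6 had a Spp1 UMI, against 1.58% and 1.30% in cluster 2. The interferon-induced cluster 14 had 10 UMIs in 58 implanted cells (60.3 CPM) and 0 UMIs in 72 non-implanted cells, which allows up to 16.9 CPM. The 12 macrophage markers summed to 226 CPM in implanted and 175 CPM in non-implanted neutrophil-like cells, with 9 higher, and the 8 erythroid markers to 93.1 and 43.6 CPM, with all higher. Their part in the difference was not tested. Implanted neutrophil-like cells held 477 Spp1 and 24 Mmp12 UMIs, where implanted macrophage-like cells held 9983 and 2717. Non-implanted neutrophil-like cells held 346 Spp1 and 0 Mmp12 UMIs, where non-implanted macrophage-like cells held only 123 and 6.

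Mast cell or basophil-like cells had 51.8 CPM of Spp1 in 13 implanted cells and 301 CPM in 9 non-implanted cells, the second from 9 UMIs in 1 cell. The named classes not yet given had less. Granulocyte precursor-like cells had 35.8 and 31.2 CPM (ratio 1.15, 0.932 to 1.42), monocyte-like cells 22.9 and 9.80 CPM (2.34, 1.27 to 4.54, on 42 and 15 UMIs) and B cell-like cells 11.3 and 18.3 CPM, in implanted and non-implanted libraries. Erythroid-like cells had 15.1 CPM in the implanted library and 0 UMIs in the non-implanted library, which allows up to 7.04 CPM. In the implanted library the intervals of precursor-like and monocyte-like, monocyte-like and erythroid-like, and erythroid-like and B cell-like cells overlapped. In the non-implanted library neighbours in the order overlapped from neutrophil-like cells downwards.

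Cd44 was broadly present, in 81.0% of implanted and 83.2% of non-implanted cells, at 566 and 519 CPM (ratio 1.09, 1.06 to 1.12). Its order across classes was headed by monocyte-like cells in both libraries (1093 and 1051 CPM), and ended with granulocyte precursor-like (202 and 195 CPM) and erythroid-like cells (83.0 and 68.7 CPM). Neutrophil-like cells had 682 and 680 CPM (ratio 1.00, 0.968 to 1.04), B cell-like cells 521 and 506 CPM and osteoclast-like cells 597 and 495 CPM. Macrophage-like cells stood apart from these pairs. Their level was 894 CPM (851 to 938) in implanted and 385 CPM (354 to 419) in non-implanted cochleae, a ratio of 2.32 (2.11 to 2.56), which put them second in the implanted order but below osteoclast-like cells in the non-implanted one.

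The Cd44 difference in macrophage-like cells was seen in cluster 8 as well as through cluster 19. Cluster 19 had 1416 CPM in implanted cells, and its 3 non-implanted cells had 1955 CPM on 28 UMIs. Cluster 8 had 615 CPM in implanted and 358 CPM in non-implanted cells (ratio 1.72, 1.52 to 1.94), and cluster 11 had 503 and 464 CPM (1.08, 0.788 to 1.49). Without cluster 19 the ratio over macrophage-like cells was 1.62 (1.44 to 1.81). In cluster 8 the neutrophil markers summed to 33539 and 47540 CPM and the monocyte markers to 3493 and 3891 CPM in implanted and non-implanted cells. In cluster 11 the neutrophil markers summed to 140659 and 130704 CPM, and in cluster 19 the monocyte markers summed to 4431 and 4190 CPM. Their part in the Cd44 values was not tested.

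Across the granulocyte lineage Cd44 was higher in the more mature clusters. With 10 clusters ordered by their neutrophil minus precursor marker score, the least mature cluster, 12 (Elane, Mpo), had 145 and 151 CPM in implanted and non-implanted cells. Cluster 5, of cycling cells, had 224 and 193 CPM, cluster 2 had 370 and 386 CPM, and cluster 7 (Mmp8) had 539 and 608 CPM. Levels were highest in cluster 4, led by Acod1 and Cxcl2, at 1462 and 1406 CPM, and lower again in the last cluster, 3, at 777 and 816 CPM. Over these 10 clusters Spearman's rho of Cd44 level with the order was 0.915 in implanted and 0.927 in non-implanted cells. The clusters of a library share that library, and their depths differ (medians of 15338.5 UMIs in cluster 12 and 2963 UMIs in cluster 3 of implanted cells), so the correlation is a description.

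**Figure D4:**
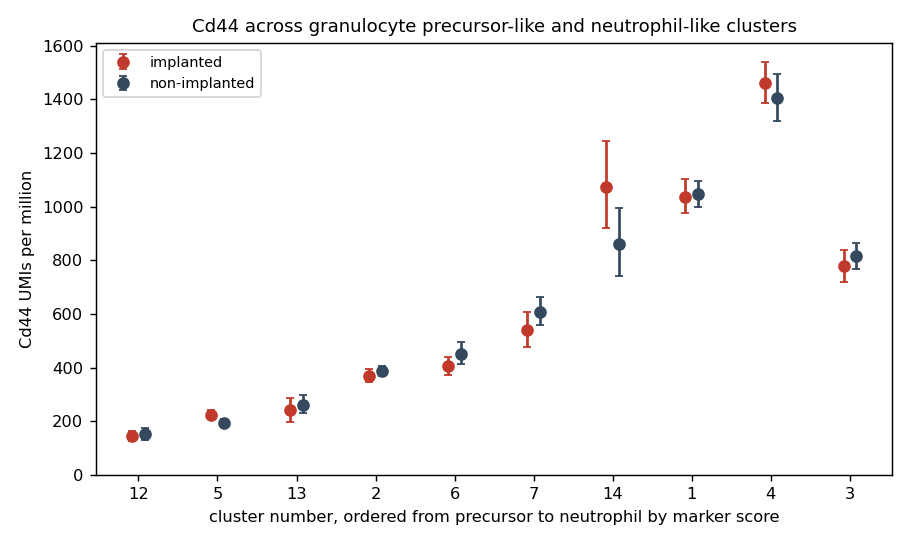
Cd44 level in CPM in 10 granulocyte clusters, ordered from precursor to neutrophil by marker score, with implanted (red) left of non-implanted (dark blue) points and exact Poisson 95% bars. Levels go from 145 and 151 in cluster 12 to 1462 and 1406 in cluster 4, and the 2 libraries lie farthest apart in cluster 14, at 1073 and 861.

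The integrin alpha v gene Itgav was close to equal between the libraries. Over all cells it had 90.2 CPM in implanted and 87.7 CPM in non-implanted cells (ratio 1.03, 0.961 to 1.10). Its highest level was in osteoclast-like cells, at 1478 and 1208 CPM, where all 11 implanted and all 28 non-implanted cells had a UMI. Macrophage-like cells came next with 290 and 306 CPM (ratio 0.946, 0.833 to 1.07). B cell-like cells had 159 and 110 CPM and monocyte-like cells 92.8 and 79.7 CPM, with overlapping intervals. Neutrophil-like cells had 36.4 and 28.2 CPM (1.29, 1.09 to 1.54), precursor-like cells 27.4 and 28.3 CPM, and erythroid-like cells 12.6 CPM and 0 UMIs. Within macrophage-like cells, Itgav was at 217 CPM in implanted cluster 19, at 383 and 339 CPM in cluster 8, and at 39.1 and 37.6 CPM in cluster 11.

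The beta chains that pair with alpha v were spread over different classes. Itgb5 lay mainly in macrophage-like cells, with 253 CPM in implanted and 252 CPM in non-implanted cells (ratio 1.00, 0.874 to 1.15), and 67.4% and 61.1% of the gene's UMIs lay there. It had 206 CPM in implanted cluster 19 and 298 and 267 CPM in cluster 8. Neutrophil-like cells were at 1.34 and 3.10 CPM. Fibroblast or fibrocyte-like cells had 108 CPM in 13 implanted and 264 CPM in 7 non-implanted cells, the second from 17 UMIs in 1 cell. Mast cell or basophil-like cells had 427 CPM in 13 implanted cells, with 30 of the 33 UMIs in 1 cell. In 9 non-implanted cells of that class there were 0 UMIs. Monocyte-like cells had 52.9 and 88.9 CPM (ratio 0.596, 0.454 to 0.779), and the gap lay in cluster 10 (F13a1, Ccr2), with 59.7 and 121 CPM, more than in cluster 9 (Vcan), with 47.8 and 54.1 CPM. The macrophage markers in monocyte-like cells summed to 3187 CPM in implanted and 3080 CPM in non-implanted cochleae, with 7 of 12 higher. Neutrophil markers there summed to 8990 and 6999 CPM, with 9 of 10 higher, and erythroid markers to 1749 and 83.6 CPM. In cluster 10 the neutrophil markers summed to 4884 and 8829 CPM, with 9 of 10 lower, and the erythroid markers to 165 and 67.0 CPM. Their part in these values was not tested.

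Itgb3 had its highest levels in rare cells. Megakaryocyte or platelet-like cells had 1303 CPM in 5 implanted and 139 CPM in 10 non-implanted cells, and osteoclast-like cells had 76.6 and 71.3 CPM. Mast cell or basophil-like cells had 479 CPM in 13 implanted and 268 CPM in 9 non-implanted cells, but 1 implanted cell held 33 of the 37 UMIs, and without it the level was 63.8 CPM. Neutrophil-like cells had 24.9 and 24.1 CPM (ratio 1.03, 0.845 to 1.25), and macrophage-like cells 6.49 and 6.20 CPM on 12 and 9 UMIs. Over all cells Itgb3 had 30.8 CPM in implanted and 20.2 CPM in non-implanted cells (ratio 1.53, 1.34 to 1.74), but 1 implanted megakaryocyte or platelet-like cell held 216 of the 568 implanted UMIs. Without the highest cell of each library the levels were 19.3 and 19.4 CPM, so that difference rested on 1 cell.

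Itga9 was found mainly in macrophage-like cells. Of its UMIs, 85.4% in implanted and 89.4% in non-implanted cochleae lay in macrophage-like cells. Their levels were 114 and 180 CPM (ratio 0.635, 0.527 to 0.764). Cluster 8 carried most of it, at 187 and 199 CPM (ratio 0.937, 0.771 to 1.14), whereas implanted cluster 19 had 31.4 CPM and cluster 11 had 16.8 and 31.4 CPM. Without cluster 19 the ratio over macrophage-like cells was 0.891 (0.735 to 1.08), an interval that includes 1. B cell-like cells had 102 and 30.5 CPM on 18 and 5 UMIs, and osteoclast-like cells had 0 UMIs in 11 implanted cells, which allows up to 14.1 CPM, and 20.9 CPM in 28 non-implanted cells. Monocyte-like, neutrophil-like, precursor-like and erythroid-like cells were between 0.343 and 1.96 CPM in both libraries.

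Across the 6 members in macrophage-like cells, 2 were at least 2-fold higher (Spp1 and Cd44) and 0 were at least 2-fold lower in implanted cells, against 2.78% and 1.67% of 9876 genes, or 4.46% in either direction. Without cluster 19 Spp1 was at least 2-fold higher (log2 ratio 1.57), though not without the cells of at least 10 UMIs as given above, and Cd44 was not (0.69), and 95 genes were higher and 104 lower, against 275 and 165 with it. The members' median log2 ratio was 0.02, and that of all genes was -0.02. In neutrophil-like cells 0 of the 5 members with at least 20 UMIs were 2-fold higher or lower (0.0483% and 0% of genes). The same held for 0 of 4 in monocyte-like cells (0.518% and 0.205%, or 0.723% in either direction) and 0 of 4 in granulocyte precursor-like cells (0.203% and 0.00966%, or 0.212% in either direction).

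How often Spp1 and its receptor transcripts were seen in the same cell differed between clusters. Of 100 implanted macrophage-like cells with a Spp1 UMI, 75 also had a Cd44 UMI and 55 an Itgav UMI, and of 37 non-implanted ones 23 and 27 did. Among cells without Spp1, 111 of 189 implanted and 111 of 206 non-implanted cells had Cd44. Those cells were shallower, with median depths of 3736 against 6972.5 UMIs in implanted and 5021.5 against 6486 UMIs in non-implanted cells. In cluster 8, Cd44 was seen in 22 of 30 implanted cells with Spp1 and in 73 of 96 without. For non-implanted cells of cluster 8 these were 19 of 28 and 89 of 135. In implanted cluster 19, 49 of the 50 cells with a Spp1 UMI also had a Cd44 UMI and 33 had an Itgav UMI. Of the 11 cells without Spp1, 8 had Cd44, but these cells were shallower (median 1427 UMIs, against 9373 in those with Spp1). In the shallow cluster 11, 4 of 20 implanted cells with Spp1 had Cd44 and 1 had Itgav. In macrophage-like cells with Itgav, Itgb5 was also seen in 92 of 129 implanted and 76 of 114 non-implanted cells, and Itgb3 in 5 and 6. In single implanted macrophage-like cells, the 5 genes whose level was most like that of Spp1 among 6454 were Fn1 (Pearson's r 0.617), the mucin-type glycoprotein gene Pdpn (0.539), S100a10 (0.510), the secretory kinase gene Fam20c (0.509) and the cathepsin gene Ctsl (0.495). Among the members, Cd44 had r 0.269, Itgav 0.0278, Itgb5 0.0186 and Itga9 -0.147, and Itgb3 was seen in too few cells for the ranking. These 289 cells share 1 library and differ in depth.

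Over 13 class-by-library units of at least 20 cells, the patterns most like those of the members were the following. For Spp1 they were Fam71f2 (r 0.935), Gpnmb (0.922), Anpep (0.919), Lsmem1 (0.895) and Cxcl3 (0.879), all highest in implanted macrophage-like cells. For Cd44 they were Vamp4, Rap1b, Btg1, Zfand3 and Sik3 (r 0.956 to 0.971), all highest in implanted monocyte-like cells. Git1, Tgfbr1, Ppfibp1, Mllt4 and Dnmt3a were most like Itgav (r 0.942 to 0.965), all highest in non-implanted osteoclast-like cells, and Rufy4, Ech1, Acad12, Osbpl2 and Pias3 most like Itgb3 (r 0.809 to 0.842). Itgb5 was matched by Rnf150, Irf2bpl, Rab7b and Adgrg6 (r 0.956 to 0.978), and Itga9 by Nuak1, Fgf13, Slamf9, Wdr25 and Ust (r 0.947 to 0.986). Units of 1 library share its depth and processing, and the ranking is over 11040 genes.

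Other osteopontin receptor chains in macrophage-like cells were mixed. Of 7 genes 6 had at least 20 UMIs, and 2 of them were at least 2-fold higher and 0 lower in implanted cells (median log2 ratio 0.21). Over all 9876 genes these shares were 2.78% and 1.67%, and this list too was chosen with such values known. Itgax, the alpha chain CD11c, had 206 CPM in implanted and 42.7 CPM in non-implanted cells (log2 ratio 2.15), and its partner Itgb2 had 415 and 195 CPM (1.07). Itga8 had 9.19 and 19.3 CPM (-0.77). Itgb1, the partner of alpha 9, had 370 and 229 UMIs (0.33) and Itga5 had 132 and 124 CPM (0.09). In cluster 8 Itgax was at 74.9 and 44.6 CPM, and in implanted cluster 19 at 454 CPM.

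Enzymes that cut or modify osteopontin were the list with the most 2-fold differences, 4 higher and 0 lower among 6 measured of 11 genes (median log2 ratio 1.43). Over all 9876 genes the shares were 2.78% higher and 1.67% lower. The list was chosen with such values known, so nothing is read from its count. The elastase gene Mmp12 had 1469 CPM in implanted and 4.13 CPM in non-implanted macrophage-like cells (log2 ratio 7.33). Acp5, a phosphatase that removes osteopontin's phosphates, had 126 and 26.8 CPM (2.04). The cathepsin gene Ctsd had 37 and 6 UMIs (1.45). Fam20c, the kinase that adds the phosphates, had 181 and 64.7 CPM (1.41). The transglutaminase gene Tgm2 had 144 and 77.1 CPM (0.86). Acp5 is also on the osteoclast marker list given above.

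Among other ligands of the same receptors, 10 of 15 were measured, 2 were at least 2-fold higher and 0 lower (median log2 ratio 0.23). The shares over all genes were 2.78% and 1.67%. Mfge8, the bridging protein whose codons are shown above, had 1338 CPM in implanted and 7.57 CPM in non-implanted cells (log2 ratio 6.74), and Fn1 had 771 and 64.7 CPM (3.48). Thbs1 had 290 and 158 CPM (0.86), Emilin1 15.1 and 9.64 CPM (0.46) and Pecam1 17.8 and 14.5 CPM (0.23). In cluster 8 Mfge8 was at 7.99 and 8.60 CPM and Fn1 at 59.9 and 42.2 CPM, while Mmp12 had 11 and 6 UMIs. In implanted cluster 19 Mfge8 was at 3681 CPM, Fn1 at 2019 CPM, Mmp12 at 4039 CPM and Fam20c at 379 CPM. Its 3 non-implanted cells had 0 UMIs of Mfge8 and of Mmp12, but 35 UMIs of Fn1 and 8 of Fam20c. The lists were chosen with such values known, and Fn1 is also a monocyte marker.

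The adaptors that link these receptors to the cell interior, and their partner proteins, showed no 2-fold difference. Of 15 measured of 16, 0 were at least 2-fold higher or lower (median log2 ratio -0.03), where the share over all genes was 4.46%. With so few genes, and a list chosen with such values known, nothing is read from that count. The kinase gene Src had 35 UMIs in implanted and 11 UMIs in non-implanted macrophage-like cells (0.93), the focal adhesion kinase gene Ptk2 71 and 29 UMIs (0.80), Msn 372 and 284 CPM (0.39), Ilk 58.4 and 79.9 CPM (-0.42) and Cd74, a partner of CD44, 9763 and 17615 CPM (-0.85). Src had few UMIs, and its plain ratio, without the added 5 CPM, was above 2-fold. The 4 relatives of osteopontin in the same gene family (Ibsp, Dmp1, Mepe and Dspp) did not reach 20 UMIs in macrophage-like cells.

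**Figure D5:**
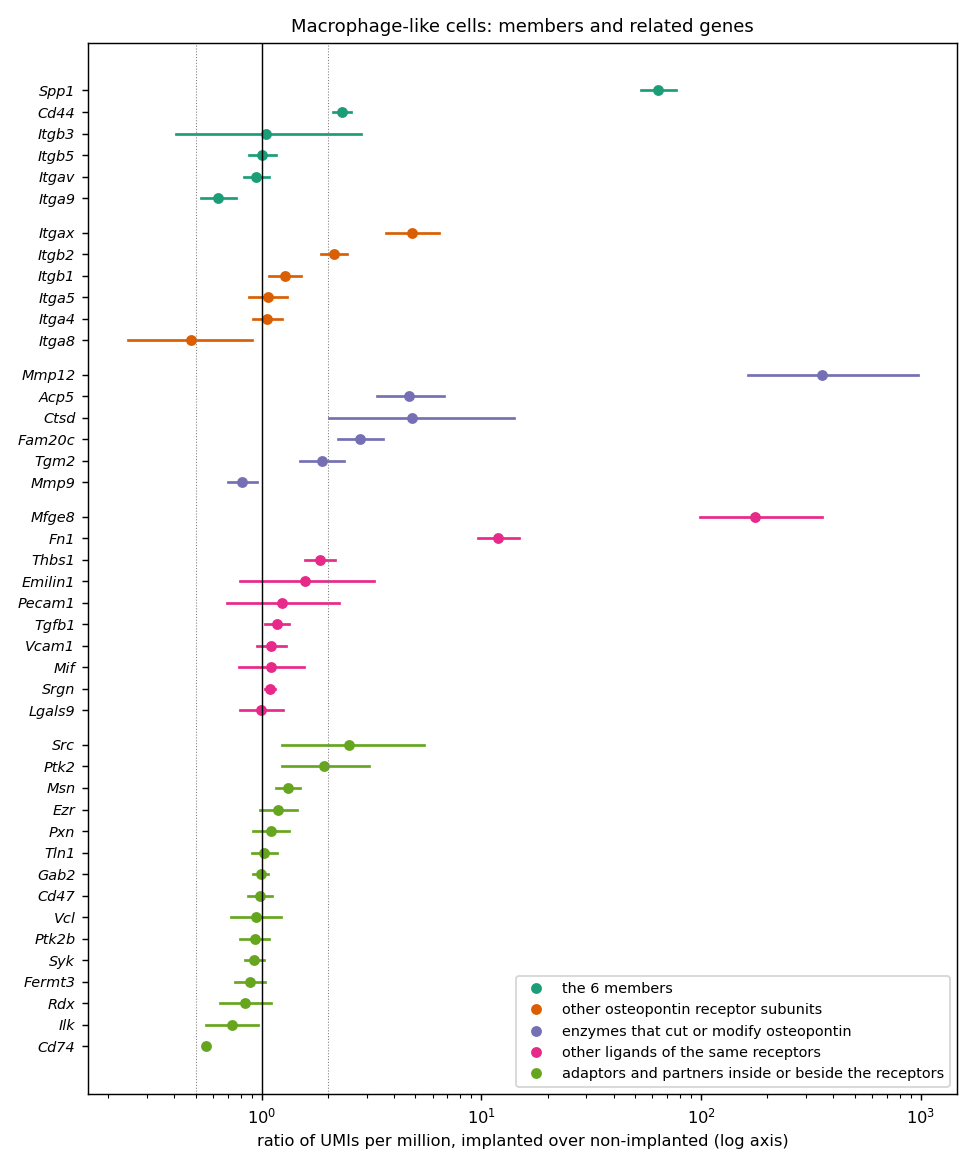
Ratio of CPM in macrophage-like cells, implanted over non-implanted, on a log axis, for the 6 members and for genes of 4 related lists with at least 20 UMIs. Points are ratios, bars exact 95% intervals, the solid line is at 1 and dotted lines are at 2-fold; Mmp12, Mfge8 and Spp1 lie farthest to the right, and most receptor and adaptor genes lie near 1.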

How the data were processed

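Single-cell 3' RNA counts of 1 implanted and 1 non-implanted library were used as the authors deposited them: whole-number UMI counts per gene and barcode, made with Cell Ranger 3.0.1 per the file headers, on mm10/GRCm38 per the submitters' processing notes. The labels' protocols name magnetic CD11b beads and a droplet kit.

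Barcodes with at least 200 genes and at most 10% mitochondrial UMIs were kept, leaving out 82 implanted and 59 non-implanted barcodes. The highest Scrublet scores were removed as doublets at 0.8% per 1000 barcodes (84 and 102 cells). Clustering used scanpy 1.11.5 and leidenalg 0.10.2 on 2000 variable genes without the members and the related lists, with no batch correction (30 components, 15 neighbours, resolution 1), giving 20 clusters, or 23 after 1 small mixed cluster was split. Clusters were named by the highest of 16 list scores. A score was the mean log2 ratio of a list's strongest markers, at most 8, over the 20th percentile of clusters. Where scores lay within 10%, the list with more markers among a cluster's 10 leading genes gave the name, which made 1 cluster fibroblast or fibrocyte-like (score 5.90, against 6.17 for osteoblast or bone stroma). The scoring was settled after the clusters were seen, and 2 clusters stayed unnamed. Cells were then summed per class and library. Ratios carry exact conditional intervals, levels exact Poisson intervals and shares Clopper-Pearson intervals, all at 95%. Log2 ratios use a pseudocount of 5 CPM and genes with at least 20 UMIs, and a gene was counted as different at 2-fold. Only the 2-fold calls, the ratio intervals and the share intervals were tested on simulated data. The simulated counts had counting error only, without the uneven spread over cells seen for Spp1. Filtering, doublet removal, clustering, naming and thinning were not tested.

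With 1 library per group no p-value was computed. Members and lists were chosen with earlier results of these data known. From each list up to 5 genes with the largest absolute log2 ratio in macrophage-like cells are named, and for each member the 5 genes with the highest correlation, of which 1 is not reported here.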

Additional observations from a re-analysis of the deposited data

How the results depend on the processing

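No paired analysis was possible because each group has 1 library. Each ratio was recomputed under 12 or 13 alternatives, and values below are log2 ratios of implanted over non-implanted. Spp1 kept its direction in all of them. Over all cells (3.57) it was 2.37 with cells thinned to 1000 UMIs, 1.89 with the same weight for every cell, 3.24 with a pseudocount of 20 CPM and 1.00 without cluster 19. In macrophage-like cells (5.91) it was 3.08 with each library clustered on its own, 4.06 thinned, 3.80 with equal weights, 1.57 without cluster 19 and 0.36 (interval -0.08 to 0.86) without cluster 19 and the cells with at least 10 Spp1 UMIs. The difference in the share of macrophage-like cells with Spp1 was 19.4 points, and 6.93 points without cluster 19 (interval -0.106 to 14.0). Without cluster 19 Cd44 was 0.69 (1.20 with it) and Itgav 0.11 (-0.08 with it). Itga9 in macrophage-like cells (-0.63) was -0.20 with cells thinned to 1000 UMIs (interval -0.87 to 0.46). With libraries clustered on their own Cd44 was 0.92, Itgav 2.98, Itgb5 0.91 (0.01 together) and Itga9 1.91, the reverse of -0.63 together. In that setting 162 of 163 non-implanted cells of cluster 8 fell in a cluster left without a name, so the class held 194 implanted and 72 non-implanted cells. Over all cells Itgb3 was 0.51, and -0.0063 without its highest cell in each library. Genes at least 2-fold apart in macrophage-like cells numbered 440 (275 higher, 165 lower), 2345 with libraries clustered alone (1872 and 473), 773 with a pseudocount of 1 CPM, 167 with 20 CPM (131 and 36) and 199 without cluster 19 (95 and 104). Where no reason is given, the cause was not tested. Spp1 in neutrophil-like cells ranged over 0.60 to 0.83 and Itgb5 in monocyte-like cells over -0.74 to -0.41, in 12 alternatives each, while Spp1 in monocyte-like cells (0.92) reached 4.35 with libraries clustered alone. The alternatives for Itga9, Itgb3, and for neutrophil-like and monocyte-like cells, and the one without cells of at least 10 Spp1 UMIs, were chosen after seeing the data. Depth limits the low members: Itgb3 in macrophage-like cells rests on 12 and 9 UMIs.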
